A study of Mus musculus with 12 samples.

Results

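The matrix metalloproteinase (Mmp), Adam, Adamts and tissue inhibitor of metalloproteinases (Timp) genes of the mouse were followed through skin and skin tumours. They were taken by name, as protein-coding entries whose symbols begin with Mmp, Adam, Adamts or Timp and a number. The rule used no measured value and gave 79 of 34303 gene symbols: 23 Mmp, 4 Timp, 33 Adam and 19 Adamts genes. RNA had been sequenced in 12 libraries from C57Bl6 mice, with total RNA from the Ambion miRVANA kit and libraries from the Illumina TruSeq RNA kit. Of these, 4 came from cutaneous squamous cell carcinoma (cSCC) of TAp63-/- mice, which lack the p63 isoforms that carry the transactivation domain. A further 2 came from cSCC of wild-type (WT) mice. All 6 tumours arose under chronic ultraviolet radiation of 2.5 kJ/m2 given 3 times a week, in mice over 35 weeks old. The remaining 3 TAp63-/- and 3 WT libraries came from the shaved dorsal skin of untreated mice 4 weeks old. Tumour and skin thus differed in age and irradiation as well as in tissue, and these cannot be told apart. Their column names also form separate series, LM for tumours and Su_R for skin, and what the series mark is not stated. The labels do not say whether each library came from a separate animal, so the p-values measure the spread between samples.

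Matrix metalloproteinases are zinc enzymes that are made as inactive precursors and cut collagens, laminins and other proteins outside the cell. The Timp proteins block them by filling the active site. Adam proteins sit in the cell membrane, where the active ones release growth factors, cytokines and receptors from the cell surface, and Adamts proteins are secreted enzymes that cut proteoglycans and procollagens. In skin, several of these genes are switched on in keratinocytes and stroma at wound edges and in carcinomas. AP-1, a dimer of Fos and Jun proteins, is a textbook activator of collagenase and stromelysin promoters through the sequence TGAGTCA.

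Mmp13 and Mmp10, the members with the largest rises in tumours, lie together on chromosome 9. The Mmp cluster there holds 10 members in 427 kb (mm10, 7272514 to 7699585), in the order Mmp13, Mmp12, Mmp1b, Mmp3, Mmp1a, Mmp10, Mmp8, Mmp27, Mmp20 and Mmp7. Promoter windows from RefSeq (build GRCm38.p6) reaching 250 bases before the start site were searched on both strands for TGAGTCA. It was present in 4.46% of 32851 windows of all genes. Of the 46 members that were expressed well enough to test, 32 had a window and 7 of these held the motif (21.9%). For this and the motifs below, a member was counted where any of its windows held the motif. The share of all genes counts single windows, so the units differ. The 7 were Mmp13, Mmp12, Mmp1b, Mmp3, Mmp1a and Mmp10 of the cluster, and Adam19. Of the tested members outside the cluster, 24 had a window and only 1, Adam19, held the motif. The share of 21.9% thus came mostly from the cluster. Mmp12 held it in the second of its windows. Within the cluster, the windows of Mmp8, Mmp27 and Mmp20 did not hold it. TATAAA, searched on the gene's strand, was present in 7.59% of all windows and in 6 of the 32, of which Mmp13, Mmp1b, Mmp3, Mmp1a and Mmp10 held both motifs. AGGAAG, an ETS motif searched on both strands, was present in 29.5% of all windows and in 14 of the 32. TGAGTCA and TATAAA cannot share a base, while AGGAAG can share an end base with either. A match describes the letters of the window, not a bound site.

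The 100 bases before the start site are shown for 8 genes of the cluster, some with the motif and some without. Mmp12 and Mmp20 are not shown. Whether the motif bears on the levels in tumours was not tested. Capitals mark TGAGTCA, or its reverse complement TGACTCA, and TATAAA. The windows are, in GRCm38.p6, chr9:7272414-7272513 for Mmp13, chr9:7502242-7502341 for Mmp10, chr9:7464041-7464140 for Mmp1a, chr9:7445722-7445821 for Mmp3, chr9:7558329-7558428 for Mmp8, chr9:7571296-7571395 for Mmp27 and chr9:7691990-7692089 for Mmp7, all on the plus strand, and chr9:7388027-7388126 on the minus strand for Mmp1b.
Mmp13: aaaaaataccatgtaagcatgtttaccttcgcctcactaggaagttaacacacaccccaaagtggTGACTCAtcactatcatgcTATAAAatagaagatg
Mmp10: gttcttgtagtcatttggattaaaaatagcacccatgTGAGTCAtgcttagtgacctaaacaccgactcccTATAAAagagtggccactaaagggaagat
Mmp1b: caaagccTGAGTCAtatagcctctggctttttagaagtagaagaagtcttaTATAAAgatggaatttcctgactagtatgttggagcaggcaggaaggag
Mmp1a: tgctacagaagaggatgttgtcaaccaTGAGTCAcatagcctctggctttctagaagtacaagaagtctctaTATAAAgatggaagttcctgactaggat
Mmp3: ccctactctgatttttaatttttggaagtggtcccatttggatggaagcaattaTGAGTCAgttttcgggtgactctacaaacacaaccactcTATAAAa
Mmp8: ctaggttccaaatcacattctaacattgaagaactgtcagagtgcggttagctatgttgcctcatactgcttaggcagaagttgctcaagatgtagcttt
Mmp27: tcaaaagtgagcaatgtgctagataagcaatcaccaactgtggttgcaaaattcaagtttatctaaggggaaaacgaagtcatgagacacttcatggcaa
Mmp7: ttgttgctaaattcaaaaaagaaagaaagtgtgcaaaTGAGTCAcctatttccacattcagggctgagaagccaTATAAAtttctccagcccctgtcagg

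Levels are in FPKM, the fragments of a transcript for its length and its library's size. A gene was tested where it reached 1 FPKM in at least 2 of the 12 libraries. This left 46 members: 18 Mmp, 4 Timp, 11 Adam and 13 Adamts. The other 33 were not tested. Of these, 12 were listed at 0 in all libraries, and Adam32 was the single one to reach 1 FPKM, at 2.12 FPKM in TAp63-/- skin replicate 1. Most of the silent genes belong to the Adam branch known from testis and epididymis, where 10 of 21 were listed at 0 in all libraries and 19 stayed under 1 FPKM. Mmp7, the matrilysin of glandular epithelia, was listed at 0 in all libraries, and its window carries both TGAGTCA and TATAAA. Sequencing depth was unknown, and a listed 0 can be a failed estimate.

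Each library had 13019 to 13073 genes at 1 FPKM or more. Trp63 was listed at 245, 109, 164 and 258 FPKM in TAp63-/- tumours, 141 and 97.3 FPKM in WT tumours, 111, 98.2 and 84.5 FPKM in TAp63-/- skin and 113, 100.4 and 119 FPKM in WT skin. These totals include the isoforms without the transactivation domain, so they do not check the genotype. Genes of wounded epidermis (Krt6a, Krt6b, Krt16, Krt17 and Sprr1b) summed to 6728 to 13050 FPKM in TAp63-/- tumours and 10130 to 28850 FPKM in WT tumours, against 428 to 977 FPKM in TAp63-/- skin and 558 to 1364 FPKM in WT skin. WT cSCC replicate 2 had 1321 FPKM of hair follicle keratins, within the 156 to 1981 FPKM of WT skin, of which 1130 FPKM was Krt71 of the inner root sheath. By Xist and Y-linked genes, all skin and TAp63-/- cSCC replicate 1 were male and 5 tumours were female, so sex goes with tissue in all but that library.

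Tumours differed from skin in both directions. In TAp63-/- tumours, the collagenases Mmp13 and Mmp1b, the stromelysin Mmp10, the gelatinase Mmp9, Timp1, Adam8 and Adam10 rose, while the gelatinase Mmp2, Timp2, Timp4, Mmp23 and Mmp27 fell. Against TAp63-/- skin, 9 of the 46 members rose and 7 fell at a limma adjusted p below 0.05, which is 34.8% called beside 27.2% of all 14752 genes tested (13.0% higher and 14.2% lower). Against WT skin, 4 members rose and 2 fell in WT tumours, 13.0% of the members beside 11.4% of all genes (4.66% higher and 6.77% lower). The members' share was thus near that of all genes in WT tissue and a little above it in TAp63-/- tissue. Both groups of tumours are small, and libraries carried weight. Without WT cSCC replicate 1 no member was called in the WT comparison, and without WT skin replicate 1, 2 or 3 it was 3, 3 or 2. Without TAp63-/- skin replicate 3 the TAp63-/- comparison called 10. With sex as a term, the TAp63-/- calls of Mmp1b (0.79), Adamts16 (0.22), Timp4 (-1.11), Mmp23 (-1.19), Adam23 (-0.91) and Adamts20 (-0.83) were lost beside those named with their genes, as were the WT calls of Timp1 (1.26), Timp4 (-1.49) and Mmp27 (-2.66).

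Separation of the libraries gave a similar picture. In TAp63-/- tissue, 9 members had all tumour libraries above all skin libraries (17.8% of all genes) and 8 had all below (16.2%). In WT tissue, with fewer libraries, the counts were 15 (27.3%) and 13 (25.5%). The median log2 change was 0.20 for the tested members beside 0.10 for all genes in TAp63-/- tissue, and 0.02 beside 0.04 in WT tissue.

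**Figure D1:**
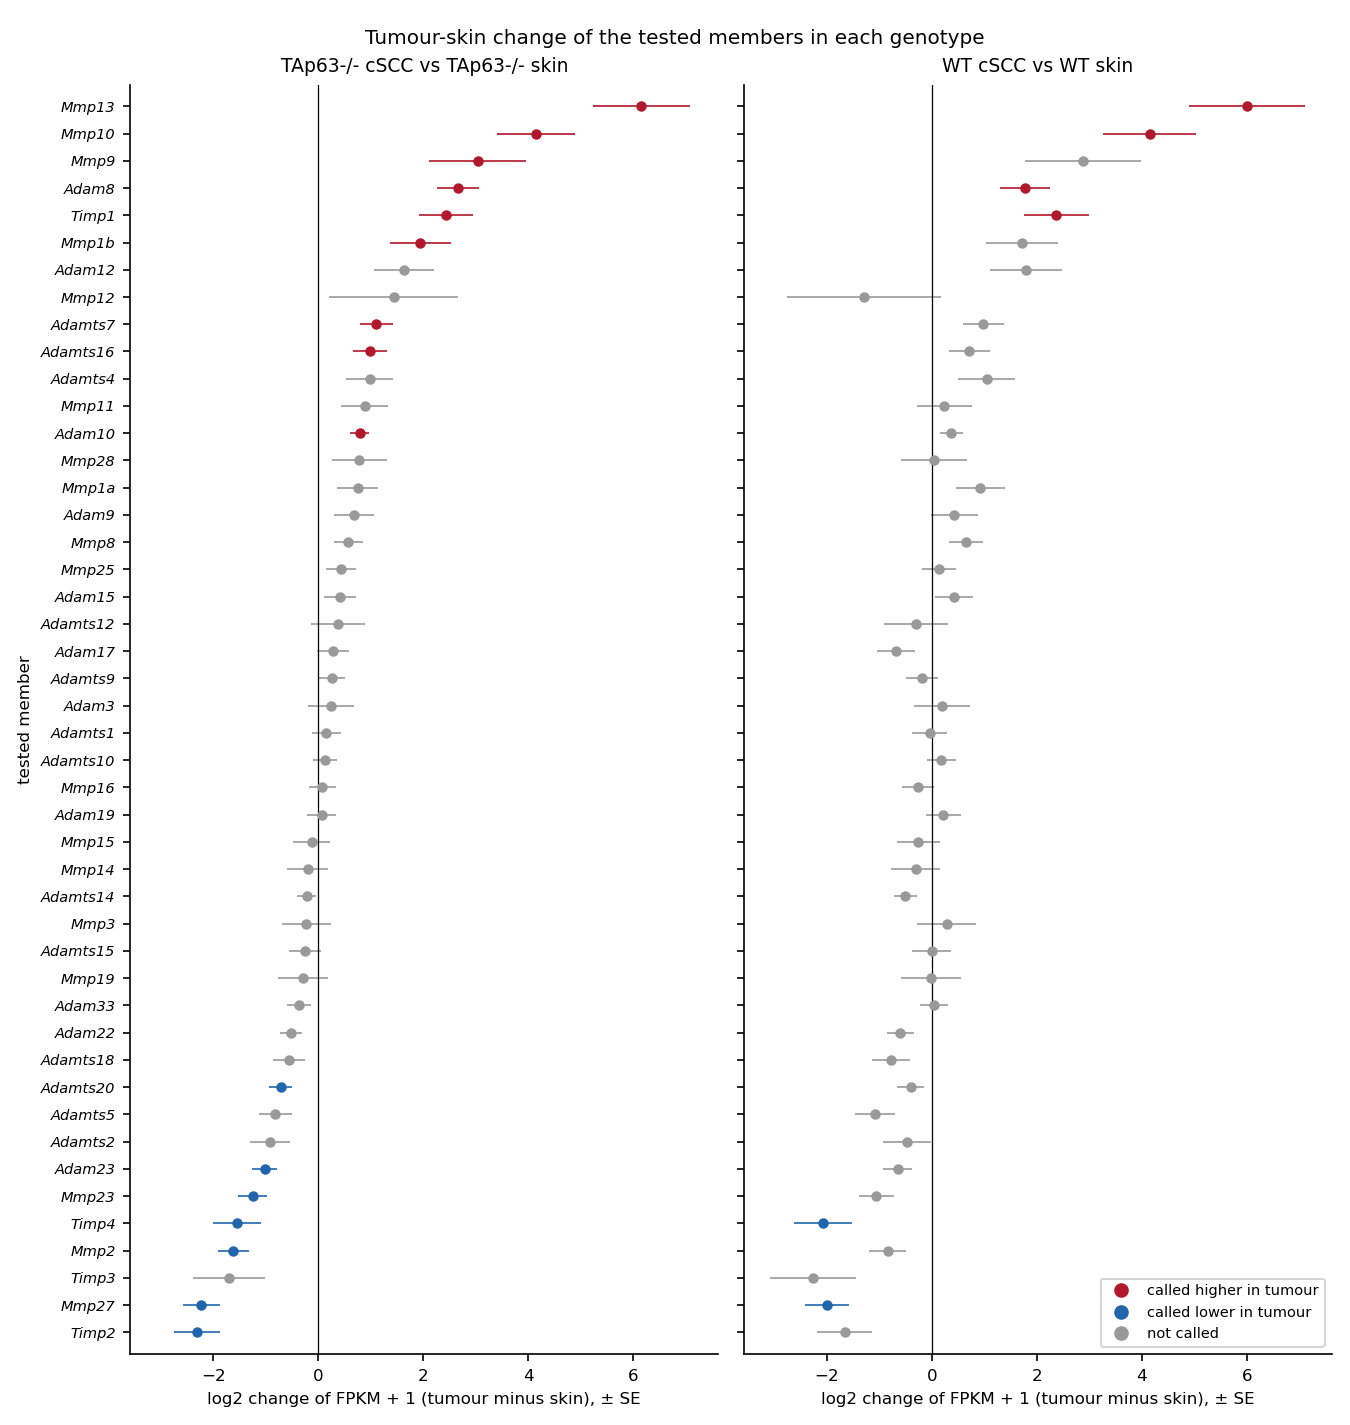
Log2 change of FPKM + 1 (tumour minus skin, bars ± SE) for the 46 tested members, TAp63-/- on the left and WT on the right, in the order of the TAp63-/- change. Red members were called higher and blue ones lower, from Mmp13 at 6.15 to Timp2 at -2.31 in TAp63-/- tissue.

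The collagenases open the fibrillar collagen helix. Mmp13 (ENSMUSG00000050578, chromosome 9, 7272514 to 7283333), the main collagenase of the mouse, had 21.5, 294, 177 and 372 FPKM in TAp63-/- tumours and 0.0643, 2.96 and 1.01 FPKM in TAp63-/- skin. WT tumours had 279 and 42.8 FPKM, against 1.21, 0.814 and 0.282 FPKM in WT skin. Every tumour stood above every skin library, and TAp63-/- cSCC replicate 1 and WT cSCC replicate 2 were the low tumours. On the log2(FPKM + 1) scale, which understates the change of genes near 0, Mmp13 rose by 6.15 in TAp63-/- tumours (SE 0.93, adjusted p = 0.000816) and by 6.004 in WT tumours (SE 1.11, adjusted p = 0.00713). The WT call was lost without WT cSCC replicate 1, where the change was 4.67 (adjusted p = 0.0917). With sex as a term it was 2.42 in WT tissue (adjusted p = 0.312), a fit in which the sex effect rests on TAp63-/- cSCC replicate 1.

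Mmp1a and Mmp1b are rodent relatives of the human interstitial collagenase MMP1 and of each other, and how well reads could be divided between them was not tested. Mmp1b had 0.74, 0.865, 7.13 and 7.65 FPKM in TAp63-/- tumours and 0 to 0.0219 FPKM in TAp63-/- skin. In WT tumours it had 4.21 and 1.10 FPKM, and 0 to 0.0162 FPKM in WT skin. All tumours were above all skin, with TAp63-/- replicates 3 and 4 the highest. Mmp1b rose by 1.95 in TAp63-/- tumours (SE 0.57, adjusted p = 0.0285), and the change of 1.72 in WT tumours did not pass (adjusted p = 0.129). With a pseudocount of 0.1 in place of 1, Mmp1b was called higher in WT tumours too. The TAp63-/- call was lost without TAp63-/- cSCC replicate 3 or 4 or any 1 of the TAp63-/- skin libraries, at changes of 1.56 to 1.96. Mmp1b overlaps the end of Mmp12 on the opposite strand over 1261 bases (7368239 to 7369499), and whether the libraries keep strand is not stated. The tumour with the most Mmp12, TAp63-/- cSCC replicate 2, had 909 FPKM of it and 0.865 FPKM of Mmp1b.
Mmp1a stayed at or below 2.10 FPKM, with 0, 0.0543, 2.10 and 1.52 FPKM in TAp63-/- tumours and 1.56 and 0.414 FPKM in WT tumours, against at most 0.0182 FPKM in skin. Mmp8, the neutrophil collagenase, had 0.37 to 1.93 FPKM in TAp63-/- tumours and 0.454 and 1.25 FPKM in WT tumours, against 0.105 to 0.492 and 0.0907 to 0.177 FPKM in TAp63-/- and WT skin. Neither passed the test in either genotype.

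The gelatinases, which cut denatured collagen and basement membrane collagen, went opposite ways. Mmp9 (gelatinase B, chromosome 2) had 8.86, 93.1, 46.8 and 131 FPKM in TAp63-/- tumours and 15.4, 3.64 and 1.82 FPKM in TAp63-/- skin. In WT tumours it had 89.1 and 12.1 FPKM, against 2.99, 3.57 and 4.57 FPKM in WT skin. TAp63-/- cSCC replicate 1 was below TAp63-/- skin replicate 1, so the TAp63-/- groups overlapped. Mmp9 rose by 3.04 in TAp63-/- tumours (SE 0.92, adjusted p = 0.0321), a call lost without TAp63-/- cSCC replicate 2, 3 or 4 or TAp63-/- skin replicate 2 or 3 (changes of 2.50 to 3.05) and at 0.72 with sex as a term (adjusted p = 0.708). The WT change of 2.88 did not pass (adjusted p = 0.115). Neutrophil markers, from cells that carry this enzyme in granules, summed to 10.6 to 45.1 FPKM in TAp63-/- tumours and 10.3 and 22.8 FPKM in WT tumours, against 2.04 to 4.35 and 3.14 to 4.33 FPKM in TAp63-/- and WT skin. Of that list Ly6g was at 0 in all WT skin, and the part of these cells in the result was not tested.

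Mmp2 (gelatinase A, chromosome 8), made largely by fibroblasts, had 23.4, 55.0, 25.8 and 45.1 FPKM in TAp63-/- tumours and 120.4, 106 and 103 FPKM in TAp63-/- skin. WT tumours had 36.0 and 41.1 FPKM, against 52.3, 79.1 and 81.7 FPKM in WT skin. Tumours were below skin in both genotypes without overlap. Mmp2 fell by 1.62 in TAp63-/- tumours (SE 0.29, adjusted p = 0.0024) and kept that call without each library and with sex as a term. The WT change of -0.84 did not pass (adjusted p = 0.141). Fibroblast markers summed to 793 to 2594 FPKM in TAp63-/- tumours and 1131 and 1382 FPKM in WT tumours, against 3903 to 8772 and 2409 to 4864 FPKM in TAp63-/- and WT skin, with none of the 7 markers at 0. Their part in the fall was not tested, and in bulk tissue fewer cells of a type and less RNA per cell cannot be told apart.

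Among the stromelysins, Mmp10 (stromelysin-2, chromosome 9), known from keratinocytes at wound edges, had 3.10, 20.2, 51.3 and 64.8 FPKM in TAp63-/- tumours and 0.251, 0.415 and 0.285 FPKM in TAp63-/- skin. WT tumours had 20.6 and 17.0 FPKM, against 0.146, 0.0766 and 0.108 FPKM in WT skin. The groups did not overlap, and TAp63-/- cSCC replicate 1 was again the lowest tumour. Mmp10 rose by 4.15 in TAp63-/- tumours (SE 0.74, adjusted p = 0.00226) and by 4.15 in WT tumours (SE 0.88, adjusted p = 0.0135). The WT call was lost without WT cSCC replicate 1 (4.02, adjusted p = 0.102). With sex as a term the changes were 1.64 in TAp63-/- tissue (adjusted p = 0.0563) and 0.80 in WT tissue (adjusted p = 0.533).
Mmp3 (stromelysin-1), whose window also holds TGAGTCA and TATAAA, had 24.6, 28.7, 78.4 and 97.5 FPKM in TAp63-/- tumours and 59.5, 71.0 and 43.3 FPKM in TAp63-/- skin. It had 33.6 and 31.7 FPKM in WT tumours, against 17.5, 26.3 and 40.7 FPKM in WT skin. Tumour and skin libraries interleaved, and the changes were -0.23 in TAp63-/- (adjusted p = 0.753) and 0.29 in WT tissue (adjusted p = 0.782). Mmp11 (stromelysin-3), which furin activates inside the cell, had 12.7, 20.5, 12.7 and 13.1 FPKM in TAp63-/- tumours, all above the 2.84, 12.3 and 10.4 FPKM of TAp63-/- skin, and a change of 0.88 that did not pass (adjusted p = 0.158). WT tumours had 12.5 and 10.7 FPKM, overlapping the 17.1, 9.35 and 5.38 FPKM of WT skin, with a change of 0.24 (adjusted p = 0.805). Its opposite strand carries Chchd10, listed at up to 54.9 FPKM.

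**Figure D2:**
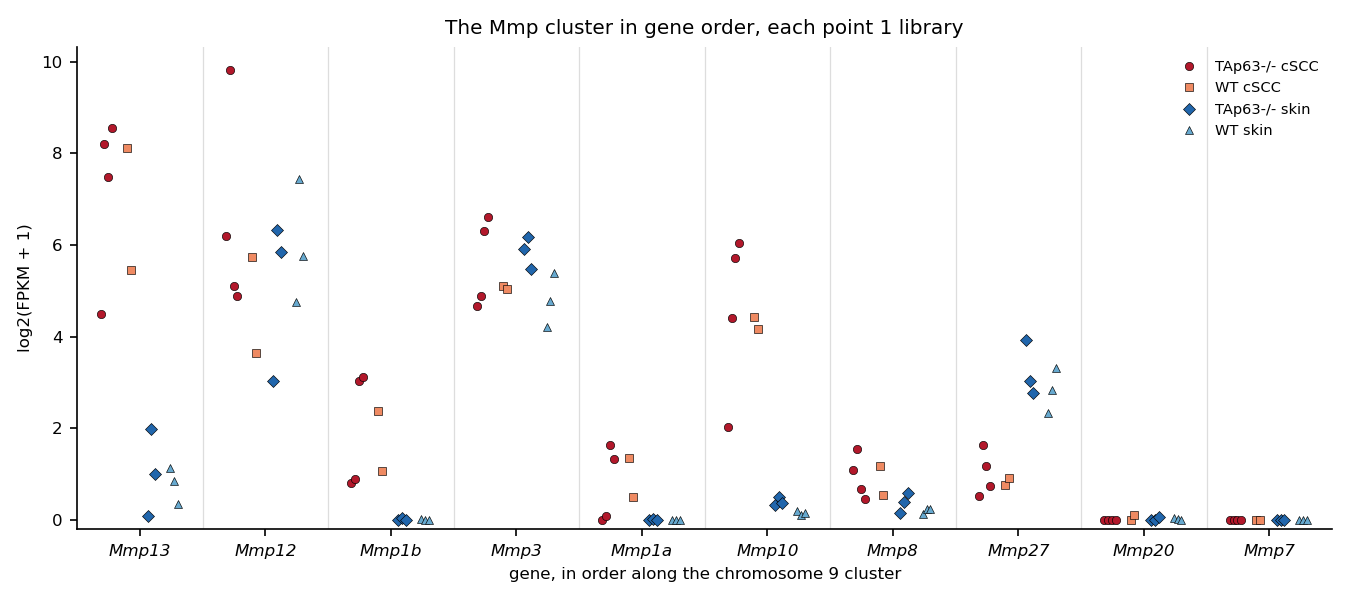
Level, as log2(FPKM + 1), of the 10 Mmp genes of the chromosome 9 cluster in gene order, each point 1 library. Mmp13, Mmp1b and Mmp10 have every tumour above every skin library, Mmp27 every tumour below, and Mmp12 and Mmp3 overlap.

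Mmp27 was the single tested member of the cluster called lower in tumours, while Mmp12, Mmp3, Mmp1a and Mmp8 were not called in either direction. It had 0.428, 2.08, 1.27 and 0.672 FPKM in TAp63-/- tumours and 14.1, 7.18 and 5.82 FPKM in TAp63-/- skin. WT tumours had 0.693 and 0.873 FPKM, against 4.04, 6.11 and 8.89 FPKM in WT skin. Every tumour lay below every skin library, the opposite of Mmp10 and Mmp13. Mmp27 fell by 2.22 in TAp63-/- tumours (SE 0.35, adjusted p = 0.000998), also without each library and with sex as a term. It fell by 1.99 in WT tumours (SE 0.41, adjusted p = 0.0122), a call lost without WT cSCC replicate 1 (-1.92, adjusted p = 0.0947) and WT skin replicate 3 (-1.75, adjusted p = 0.0509).

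Mmp12, the macrophage elastase, spread widely within groups. It had 72.3, 909, 33.4 and 28.7 FPKM in TAp63-/- tumours and 7.15, 79.8 and 56.5 FPKM in TAp63-/- skin. WT tumours had 52.1 and 11.4 FPKM, against 25.9, 172 and 53.2 FPKM in WT skin. The groups overlapped, and the changes of 1.44 in TAp63-/- tissue (SE 1.23, adjusted p = 0.41) and -1.30 in WT tissue (SE 1.46, adjusted p = 0.607) did not pass. Macrophage markers summed to 695 FPKM in TAp63-/- cSCC replicate 2 and to 109 to 274 FPKM in the other TAp63-/- tumours and 168 and 212 FPKM in WT tumours. In TAp63-/- skin the sum was 442 to 650.3 FPKM and in WT skin 265 to 625 FPKM, with none of the 5 markers at 0 throughout any group. Their part in the level of Mmp12 was not tested.

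Of the membrane-type enzymes, none of the 4 tested passed in either genotype, and none had an unadjusted p below 0.05. Mmp14 (chromosome 14), which activates the Mmp2 precursor in a complex with Timp2, was among the most abundant members everywhere. It had 64.6, 188.5, 69.4 and 52.6 FPKM in TAp63-/- tumours and 78.7, 142 and 74.4 FPKM in TAp63-/- skin. In WT tumours it had 57.6 and 51.3 FPKM, against 59.2, 80.9 and 63.6 FPKM in WT skin. The changes were -0.20 in TAp63-/- (adjusted p = 0.741) and -0.30 in WT tissue (adjusted p = 0.722). Mmp23 (chromosome 4), which is anchored in the membrane by its N-terminal end, had 10.9, 9.61, 8.11 and 13.7 FPKM in TAp63-/- tumours and 31.1, 18.2 and 31.3 FPKM in TAp63-/- skin. WT tumours had 9.62 and 8.44 FPKM, against 16.7, 14.9 and 30.8 FPKM in WT skin. Tumours were below skin in both genotypes. Mmp23 fell by 1.25 in TAp63-/- tumours (SE 0.28, adjusted p = 0.00825), while the WT change of -1.05 did not pass (adjusted p = 0.0667). Mmp28 (epilysin), an epidermal Mmp, had 1.04 to 9.60 FPKM in TAp63-/- tumours and 1.94 and 4.07 FPKM in WT tumours, against 1.93 to 4.59 FPKM in TAp63-/- and 1.86 to 4.01 FPKM in WT skin, and passed in neither.

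The inhibitors went opposite ways in TAp63-/- tumours. Timp1 (ENSMUSG00000001131, chromosome X, 20870166 to 20874735), which also binds the Mmp9 precursor, had 30.3, 123, 43.7 and 55.3 FPKM in TAp63-/- tumours and 3.43, 17.0 and 12.9 FPKM in TAp63-/- skin. WT tumours had 60.7 and 46.3 FPKM, against 8.78, 12.7 and 7.42 FPKM in WT skin. All tumours were above all skin libraries. Timp1 rose by 2.43 in TAp63-/- tumours (SE 0.52, adjusted p = 0.0061) and by 2.37 in WT tumours (SE 0.62, adjusted p = 0.0324). The TAp63-/- call was kept without each library and lost with sex as a term (1.60, adjusted p = 0.183). The WT call was lost without any 1 of the WT tumours or WT skin libraries, at changes of 2.18 to 2.57.

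Timp2 (ENSMUSG00000017466, chromosome 11, 118301069 to 118355740) had 28.9, 112.5, 27.0 and 36.1 FPKM in TAp63-/- tumours and 226, 247 and 176 FPKM in TAp63-/- skin. WT tumours had 33.5 and 55.2 FPKM, against 101.2, 150.5 and 172 FPKM in WT skin. Each genotype's tumours were below its skin. Timp2 fell by 2.31 in TAp63-/- tumours (SE 0.44, adjusted p = 0.00326), also without each library and with sex as a term, and the WT change of -1.66 did not pass (adjusted p = 0.0647). Timp3 (chromosome 10), which binds matrix and also blocks Adam17, had 25.2, 146, 12.01 and 49.3 FPKM in TAp63-/- tumours and 120.1, 139.6 and 127 FPKM in TAp63-/- skin. WT tumours had 16.0 and 60.6 FPKM, against 182, 125 and 157.5 FPKM in WT skin. TAp63-/- cSCC replicate 2 alone of the tumours reached the skin levels, and the changes of -1.70 in TAp63-/- (adjusted p = 0.0876) and -2.25 in WT tissue (adjusted p = 0.0992) did not pass. Without that library the TAp63-/- change was -2.33 and passed, and the WT changes of Timp2 and Timp3 passed too at -1.66 and -2.25.

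Timp4 (chromosome 6), the least abundant inhibitor, had 0.758, 0.577, 0 and 0.0279 FPKM in TAp63-/- tumours and 7.17, 0.849 and 2.62 FPKM in TAp63-/- skin. WT tumours had 0.0164 and 1.27 FPKM, against 5.64, 6.19 and 4.43 FPKM in WT skin. It fell by 1.55 in TAp63-/- (SE 0.46, adjusted p = 0.0292) and by 2.07 in WT tumours (SE 0.55, adjusted p = 0.0346). Both calls hung on single libraries. The TAp63-/- call was lost without TAp63-/- cSCC replicate 3 or 4 or TAp63-/- skin replicate 1 or 3 (-0.99 to -1.58), and the WT call without WT cSCC replicate 1 or any 1 of the WT skin libraries (-1.49 to -2.19). Timp1, Timp3 and Timp4 lie inside the genes Syn1, Syn3 and Syn2 on the opposite strand, which were listed at no more than 0.542, 0.789 and 0.409 FPKM.

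**Figure D3:**
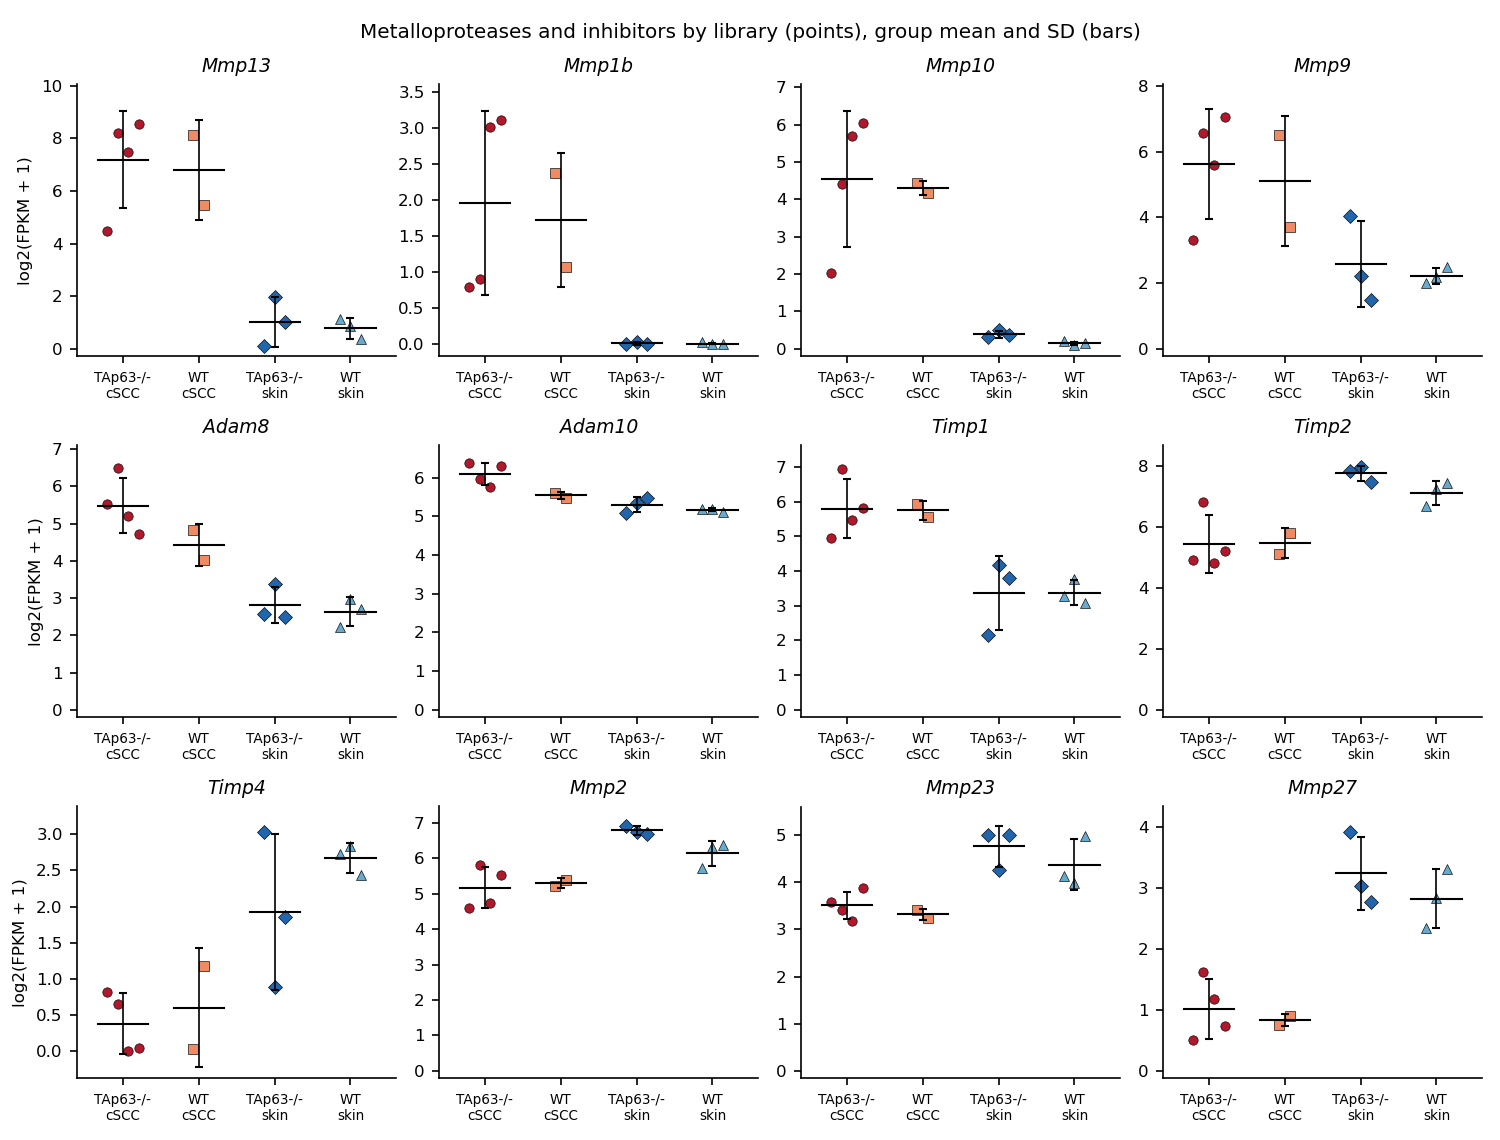
Level, as log2(FPKM + 1), of 12 members in each library (points) with the group mean (line) and SD (bar), groups in the order TAp63-/- cSCC (n = 4), WT cSCC (n = 2), TAp63-/- skin (n = 3) and WT skin (n = 3). Mmp13, Mmp1b, Mmp10, Adam8, Adam10 and Timp1 have the tumours above the skin of their own genotype, and Timp2, Timp4, Mmp2, Mmp23 and Mmp27 below.

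Together these shifts changed the make-up of the inhibitor pool. Timp1 made up 35.6%, 32.1%, 52.8% and 39.3% of the summed Timp FPKM in TAp63-/- tumours and 0.961%, 4.20% and 4.04% in TAp63-/- skin. In WT tumours it made up 55.1% and 28.4%, against 2.95%, 4.32% and 2.18% in WT skin. The summed Timp level was 85.1, 382, 82.7 and 141 FPKM in TAp63-/- tumours and 110.2 and 163 FPKM in WT tumours, against 357, 404 and 319 FPKM in TAp63-/- skin and 298, 295 and 341 FPKM in WT skin. All tumours but TAp63-/- cSCC replicate 2 had less Timp in total than any skin library. The summed Mmp level was 266, 1643, 531 and 849 FPKM in TAp63-/- tumours, 611 and 240.0 FPKM in WT tumours, 345, 459 and 343 FPKM in TAp63-/- skin and 207, 408 and 304 FPKM in WT skin, so tumours and skin overlapped. Mmp2 made up 3.35% to 8.80% of it in TAp63-/- tumours and 5.89% and 17.1% in WT tumours, against 23.1% to 34.9% in TAp63-/- skin and 19.4% to 26.9% in WT skin. These sums are descriptions of genes already given and were not tested. Skeletal muscle markers summed to 37.3 to 189 FPKM in TAp63-/- tumours and 73.1 and 545 FPKM in WT tumours. In TAp63-/- skin they summed to 5316 to 8890 FPKM, and in WT skin to 4349 to 5692 FPKM. The part of muscle cells, and of the fibroblasts given beside Mmp2, in the Timp levels was not tested.

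Of the 11 tested Adam genes, Adam8 and Adam10 rose in TAp63-/- tumours and Adam23 fell. Adam8 (ENSMUSG00000025473, chromosome 7, 139978932 to 139992562), a protease of leukocytes and tumour cells that sheds adhesion molecules, had 45.1, 88.4, 35.9 and 25.5 FPKM in TAp63-/- tumours and 4.92, 9.38 and 4.67 FPKM in TAp63-/- skin. WT tumours had 27.3 and 15.2 FPKM, against 3.66, 6.88 and 5.58 FPKM in WT skin. All tumours were above all skin. Adam8 rose by 2.67 in TAp63-/- tumours (SE 0.40, adjusted p = 0.000789), also without each library and with sex as a term, and by 1.78 in WT tumours (SE 0.48, adjusted p = 0.0366). The WT call was lost without WT cSCC replicate 1 or any 1 of the WT skin libraries (1.38 to 1.95) and with sex as a term (1.83, adjusted p = 0.256).

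Adam10 (ENSMUSG00000054693, chromosome 9, 70678997 to 70780229), which cuts Notch receptors, E-cadherin and betacellulin, had 81.4, 60.9, 53.0 and 77.1 FPKM in TAp63-/- tumours and 33.03, 39.8 and 43.1 FPKM in TAp63-/- skin. WT tumours had 47.6 and 43.6 FPKM, against 35.2, 35.7 and 33.8 FPKM in WT skin. Tumours lay above skin in each genotype. Adam10 rose by 0.79 in TAp63-/- tumours (SE 0.18, adjusted p = 0.00825), also without each library and with sex as a term, and the WT change of 0.38 did not pass (adjusted p = 0.275). Adam17, the sheddase of Tnf, Tgfa and Areg, did not change in the test. It had 39.2, 58.9, 38.7 and 32.1 FPKM in TAp63-/- tumours and 31.9, 51.1 and 23.6 FPKM in TAp63-/- skin. WT tumours had 21.6 and 38.4 FPKM, against 36.2, 51.5 and 54.8 FPKM in WT skin. Its changes were 0.28 in TAp63-/- (adjusted p = 0.533) and -0.68 in WT tissue (adjusted p = 0.254), with overlapping libraries in both.

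Adam23, which lacks a working active site and binds Lgi proteins in the nervous system, had 1.14, 0.577, 1.55 and 0.844 FPKM in TAp63-/- tumours and 3.20, 3.69 and 2.33 FPKM in TAp63-/- skin. WT tumours had 0.552 and 1.21 FPKM, against 1.30, 2.21 and 2.34 FPKM in WT skin. It was below skin in every tumour of each genotype and fell by 1.01 in TAp63-/- tumours (SE 0.24, adjusted p = 0.0103), while the WT change of -0.65 did not pass (adjusted p = 0.162). Schwann cell markers summed to 8.21 to 20.8 FPKM in TAp63-/- tumours and 14.6 and 15.1 FPKM in WT tumours, against 62.4 to 100.8 and 55.4 to 125 FPKM in TAp63-/- and WT skin, and their part was not tested. Adam12, an Adam of stroma and fused muscle cells, had 3.87 to 23.3 FPKM in TAp63-/- tumours and 6.003 and 17.7 FPKM in WT tumours, against 0.828 to 5.07 FPKM in TAp63-/- and 1.67 to 3.45 FPKM in WT skin. Its changes of 1.63 (adjusted p = 0.0562) and 1.80 (adjusted p = 0.115) did not pass.

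Of the 13 tested Adamts genes, 2 rose and 1 fell in TAp63-/- tumours, 23.1% beside 27.2% of all genes. None passed in WT tumours, where 3 had an unadjusted p below 0.05, beside 28.1% of all genes. Adamts7, which cuts cartilage oligomeric matrix protein, had 1.501, 5.63, 2.68 and 2.48 FPKM in TAp63-/- tumours and 0.621, 0.761 and 0.936 FPKM in TAp63-/- skin. WT tumours had 3.81 and 1.58 FPKM, against 0.924, 1.02 and 0.455 FPKM in WT skin. Every tumour was above every skin library. Adamts7 rose by 1.11 in TAp63-/- tumours (SE 0.32, adjusted p = 0.0269), a call lost without any 1 of the TAp63-/- skin libraries (1.05 to 1.18) and with sex as a term (0.50, adjusted p = 0.489). The WT change was 0.98 (adjusted p = 0.122). Its opposite strand carries Tbc1d2b, listed at up to 94.7 FPKM.

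Adamts16 had 0.207, 1.30, 2.12 and 1.04 FPKM in TAp63-/- tumours and at most 0.0702 FPKM in TAp63-/- skin, with 1.48 and 0.136 FPKM in WT tumours and at most 0.0326 FPKM in WT skin. It rose by 0.99 in TAp63-/- tumours (SE 0.33, adjusted p = 0.0465). That call was lost without any 1 of TAp63-/- cSCC replicates 2 to 4, the TAp63-/- skin libraries or the WT skin libraries (0.79 to 1.01). Adamts20, mutated in the belted mouse with its white band of fur, had 0, 0.13, 0.134 and 0.0816 FPKM in TAp63-/- tumours and 0.375, 0.795 and 1.26 FPKM in TAp63-/- skin. WT tumours had 0.302 and 0.309 FPKM, against 0.81, 1.05 and 0.37 FPKM in WT skin. It fell by 0.71 in TAp63-/- tumours (SE 0.22, adjusted p = 0.0337). The call was lost without TAp63-/- cSCC replicate 1 or 4, TAp63-/- skin replicate 2 or 3 or WT skin replicate 1 (-0.53 to -0.71). The aggrecanases Adamts4 and Adamts5 went different ways without passing, at 0.98 and -0.81 in TAp63-/- tissue (adjusted p = 0.128 and 0.084).

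Genes that work with these proteases were counted in 4 lists. The lists were chosen with earlier results of these data known, so their called shares describe the lists and test nothing. Among 14 tested regulators of plasminogen and metalloproteases, 5 rose and 3 fell in TAp63-/- tumours, and 4 rose and 2 fell in WT tumours. That is 57.1% beside 27.2% of all genes in TAp63-/- tissue and 42.9% beside 11.4% in WT tissue. Plau, the urokinase that starts plasmin formation, rose by 1.60 in TAp63-/- tumours (adjusted p = 0.00539), and Furin, which cuts the precursors of membrane-type enzymes, by 0.99 (adjusted p = 0.00138). Tfpi2 rose by 1.63 in TAp63-/- tumours (adjusted p = 0.00441) and by 1.805 in WT tumours (adjusted p = 0.0147). With sex as a term both Tfpi2 calls were lost (0.88 and 0.81, adjusted p = 0.179 and 0.432). The WT call of Tfpi2 was also lost without WT cSCC replicate 1 or WT skin replicate 2. Pcsk6 fell by 1.98 in TAp63-/- tumours (adjusted p = 0.001655), also without each library and with sex as a term. Reck, a membrane-bound inhibitor of Mmp2, Mmp9 and Mmp14, had 0.985, 1.16, 0.924 and 1.16 FPKM in TAp63-/- tumours and 5.93, 5.77 and 4.70 FPKM in TAp63-/- skin. It had 0.984 and 2.25 FPKM in WT tumours, against 3.45, 4.17 and 4.68 FPKM in WT skin. Reck fell by 1.65 in TAp63-/- tumours (adjusted p = 0.000184) and had a change of -1.001 in WT tumours (adjusted p = 0.0209), that call being lost without WT cSCC replicate 1 or WT skin replicate 2 or 3 (-0.65 to -0.99). Of the calls in this list, 7 of 8 in TAp63-/- and 1 of 6 in WT tissue were kept without each library, and 5 and 0 with sex as a term.

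Among 15 tested proteins shed from the membrane and the iRhom partners of Adam17, 6 rose and 3 fell in TAp63-/- tumours and 6 rose and 0 fell in WT tumours, 60.0% beside 27.2% of all genes and 40.0% beside 11.4%. Those that rose in both were ligands of the epidermal growth factor receptor and Cd44. Hbegf had 33.1, 15.8, 22.8 and 30.6 FPKM in TAp63-/- tumours and 1.60, 1.75 and 2.59 FPKM in TAp63-/- skin, with 27.7 and 46.8 FPKM in WT tumours and 6.14, 2.97 and 1.86 FPKM in WT skin. It rose by 3.12 (adjusted p = 0.000121) and 3.10 (adjusted p = 0.00135). Epgn rose by 4.34 in TAp63-/- tumours (adjusted p = 0.000224) and by 3.54 in WT tumours (adjusted p = 0.00646). Btc, the ligand that Adam10 releases, fell by 2.16 in TAp63-/- tumours (adjusted p = 0.00227), and the receptor Notch1 by 1.13 (adjusted p = 0.00613). Without each library, 6 of 9 calls in TAp63-/- tissue and 2 of 6 in WT tissue, Epgn and Hbegf, were kept. With sex as a term 4 of 9 and 1 of 6 were kept. The WT call of Epgn was then lost at 1.94 (adjusted p = 0.261), and the TAp63-/- calls of Areg and Notch1 at 1.86 and -0.86 (adjusted p = 0.0934 and 0.142).

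Among 13 tested matrix proteins, 2 rose and 4 fell in TAp63-/- tumours (46.2% beside 27.2% of all genes) and 2 rose in WT tumours (15.4% beside 11.4%). Col7a1, which anchors the epidermis, and Tnc, a wound matrix protein, rose in both genotypes, Tnc by 3.44 in TAp63-/- and by 2.97 in WT tumours. Col7a1 had 21.3, 56.0, 41.7 and 46.4 FPKM in TAp63-/- tumours and 2.93, 3.58 and 4.07 FPKM in TAp63-/- skin, with 25.9 and 14.6 FPKM in WT tumours and 1.87, 2.78 and 2.75 FPKM in WT skin. Its changes were 3.15 (adjusted p = 5.88e-05) and 2.57 (adjusted p = 0.00209). With sex as a term, Tnc was lost in both genotypes, at 2.36 in TAp63-/- (adjusted p = 0.105) and 1.53 in WT tissue (adjusted p = 0.497), and Col7a1 in WT tissue, at 1.45 (adjusted p = 0.111). Of the fibrillar collagens, Col3a1 fell by 1.90 in TAp63-/- tumours (adjusted p = 0.0121) and kept that call without each library. Col1a1, Col1a2 and Nid1 also fell, with calls that rested on single libraries. The Nid1 call was lost without TAp63-/- cSCC replicate 1, 3 or 4, any 1 of the TAp63-/- skin libraries or WT skin replicate 2 or 3, and the WT call of Tnc without either WT tumour or WT skin replicate 2 or 3. Col1a1 was lost without TAp63-/- skin replicate 1 and Col1a2 without that library, TAp63-/- skin replicate 2 or TAp63-/- cSCC replicate 1 or 3. Col3a1, Col1a1 and Col1a2 all belong to the fibroblast marker list given beside Mmp2. Among 9 other metzincins and Adamts-like proteins, Adamtsl1 fell by 1.33 (adjusted p = 0.000402) and Adamtsl4 by 1.76 (adjusted p = 0.000497) in TAp63-/- tumours, Tll1 rose by 1.61 (adjusted p = 0.023), and none passed in WT tumours. The called share was 33.3% beside 27.2% of all genes in TAp63-/- tissue, and in WT tissue 3 of the 9 had an unadjusted p below 0.05, beside 28.1% of all genes. The Tll1 call was lost without any 1 of the TAp63-/- skin libraries, and at 0.60 with sex as a term (adjusted p = 0.529).

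The tumours differed among themselves in the protease they made most of. TAp63-/- cSCC replicate 2 had the highest level of the 6 tumours for 21 of the 46 tested members, 45.7% beside 17.1% of all tested genes. Replicate 4 of the TAp63-/- tumours was highest for 12 (26.1% beside 9.64%). Replicate 1 of the TAp63-/- tumours was highest for 4 (8.70% beside 19.4%) and lowest for 16, and replicate 3 was highest for 6 (13.0% beside 22.4%). WT cSCC replicate 1 was highest for 1 (2.17% beside 18%) and WT cSCC replicate 2 for 2 (4.35% beside 13.5%). Mmp12 made up 55.3% of the summed Mmp FPKM in TAp63-/- cSCC replicate 2 and 3.38% in replicate 4, where Mmp13 made up 43.8%. Beside its macrophage sum, TAp63-/- cSCC replicate 2 had the highest fibroblast sum of the tumours (2594 FPKM, others 793 to 1637), neutrophil sum (45.1 FPKM, others 10.3 to 22.8), mast cell sum (127 FPKM, others 12.8 to 90.4) and adipocyte sum (2651 FPKM, others 52.5 to 1399). Of that adipocyte sum, 2639 FPKM was Fabp4. The other adipocyte markers were highest in WT cSCC replicate 2, Adipoq at 25.3, Plin1 at 5.77 and Cidec at 18.4 FPKM. The part of these cells in the member levels of TAp63-/- cSCC replicate 2 was not tested.

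**Figure D4:**
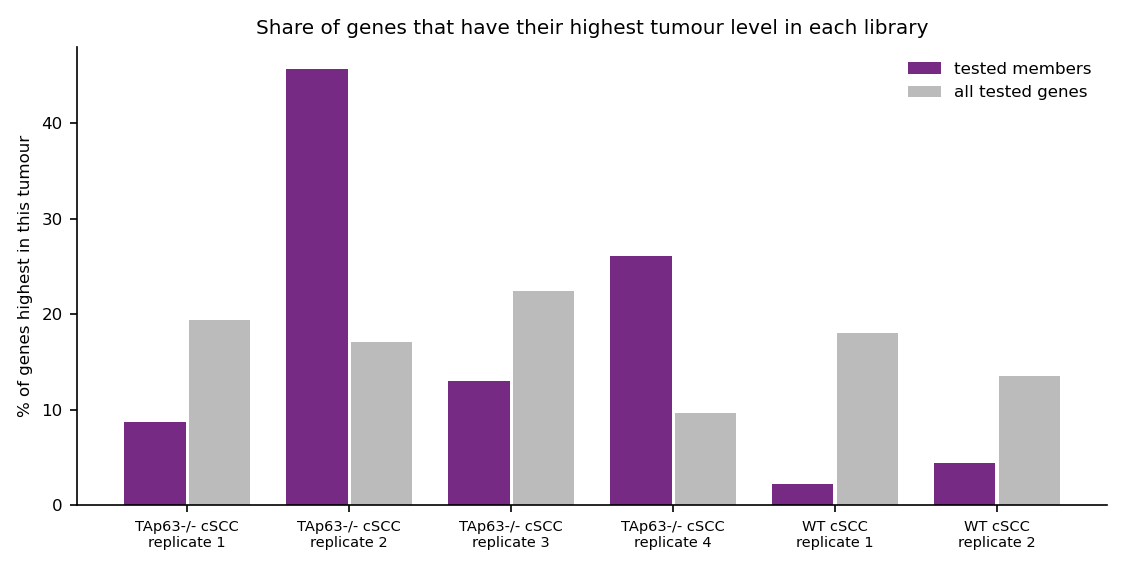
Share of genes, in percent, that have their highest level among the 6 tumours in each tumour library, for the 46 tested members (purple) and all 14752 tested genes (grey). TAp63-/- cSCC replicate 2 holds 45.7% of the members beside 17.1% of all genes.

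Whether loss of TAp63 alters these genes in unirradiated skin was asked by comparing TAp63-/- with WT skin. No member was called at an adjusted p below 0.05, and 3 of all 14752 genes were (0.0203%). At an unadjusted p below 0.05 there were 6 members, beside 5.0% of all genes, and all 6 were higher in TAp63-/- skin. Libraries were fully separated for 7 members, all higher in TAp63-/- skin and none lower, beside 6.77% and 3.85% of all genes. These were Mmp2, Mmp3, Mmp10, Mmp15, Timp2, Adam9 and Adam33.
Mmp3 averaged 57.9 FPKM in TAp63-/- skin and 28.1 FPKM in WT skin (n = 3 each), a change of 1.07 (SE 0.33, adjusted p = 0.923). Mmp2 averaged 109.7 ± 9.45 FPKM in TAp63-/- skin and 71.0 ± 16.2 FPKM in WT skin (SD, n = 3 each), a change of 0.64 (SE 0.19, adjusted p = 0.923). Timp2 averaged 216 ± 36.2 FPKM in TAp63-/- skin and 141 ± 36.2 FPKM in WT skin (SD, n = 3 each), a change of 0.63 (SE 0.24, adjusted p = 0.923). Mmp10 differed by 0.24 at levels under 1 FPKM in all 6 libraries, and Adam9, Adam33 and Mmp15 by 0.29, 0.36 and 0.24. Fibroblast markers, as given beside Mmp2, summed to 3903 to 8772 FPKM in TAp63-/- skin and 2409 to 4864 FPKM in WT skin, and their part in these differences was not tested.
The remaining members named throughout overlapped between the genotypes. Timp1 differed by -0.01, Timp3 by -0.25, Timp4 by -0.75, Mmp9 by 0.36, Mmp13 by 0.24, Mmp14 by 0.48, Adam10 by 0.14 and Adam17 by -0.46. None of the 51 tested genes of the 4 lists was called.

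**Figure D5:**
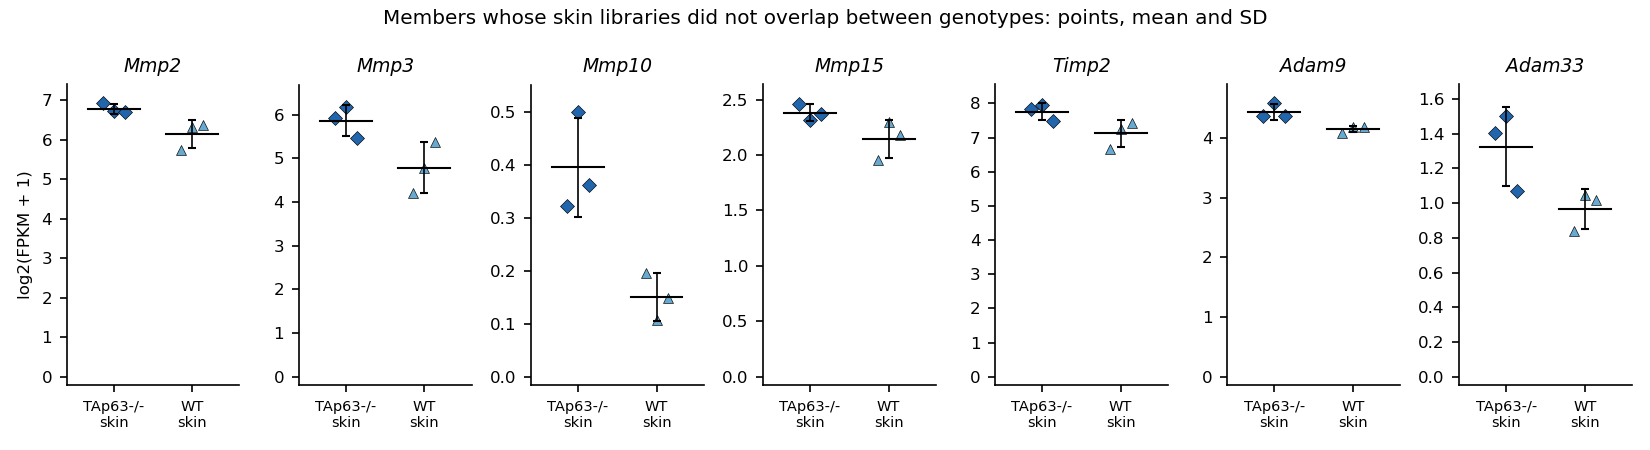
Level, as log2(FPKM + 1), in skin of the 7 members whose libraries did not overlap between genotypes, TAp63-/- left and WT right (n = 3 each, points with mean and SD). TAp63-/- libraries lie above WT libraries in each, and none passed the adjusted test.

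Between tumours, TAp63-/- cSCC was compared with WT cSCC. No member was called, as no gene was (0% of 14752), and no member had an unadjusted p below 0.05, beside 2.84% of all genes. With 2 WT tumours only large differences can pass, and a p above the threshold does not show that the genotypes were alike. The 4 members with the smallest p were Adam10, Adam8, Mmp16 and Adam17. Adam10 averaged 68.1 ± 13.4 FPKM in TAp63-/- tumours (SD, n = 4) and 45.6 ± 2.80 FPKM in WT tumours (SD, n = 2), a change of 0.55 (SE 0.25, adjusted p = 1). Adam8 averaged 48.7 ± 27.6 FPKM in TAp63-/- tumours and 21.2 ± 8.57 FPKM in WT tumours, a change of 1.07 (SE 0.50). Adam17 and the membrane-type Mmp16 each differed by 0.50 (SE 0.34 and 0.26). Libraries were separated with TAp63-/- tumours higher for Adam10, Mmp11 and Mmp16 (5.71% of all genes) and lower for Adamts20 (4.14%).
The genes that changed most between tumour and skin had overlapping levels in the tumours of both genotypes. Mmp13 averaged 216 ± 153 FPKM in TAp63-/- tumours and 161 ± 167 FPKM in WT tumours, and Mmp10 34.8 ± 28.2 FPKM in TAp63-/- tumours and 18.8 ± 2.51 FPKM in WT tumours. Timp1 averaged 63.0 ± 41.0 FPKM in TAp63-/- tumours and 53.5 ± 10.2 FPKM in WT tumours, and Timp2 51.1 ± 41.1 FPKM in TAp63-/- tumours and 44.3 ± 15.3 FPKM in WT tumours.

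Whether the tumour-skin change itself depended on TAp63 was asked with the interaction of genotype and tissue, the TAp63-/- change minus the WT change. No member was called (0.0271% of all genes were) and none had an unadjusted p below 0.05, beside 3.01% of all genes. The members with the smallest p were Adam17 at 0.95 (SE 0.48), Mmp2 at -0.77 (SE 0.45), Adam10 at 0.41 (SE 0.28) and Adam8 at 0.89 (SE 0.62), each with an adjusted p of 0.9998. For Mmp13 it was 0.15 (SE 1.45), for Mmp10 0.00 and for Timp1 0.06 (SE 0.81). The larger number of calls in TAp63-/- tissue is therefore not shown to be a difference between the genotypes, and that comparison had more libraries.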

How the data were processed

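The deposited table holds FPKM values that the authors made with TopHat2 2.0 and Cufflinks 2.0 on mm10, per the submitters' processing notes. All 12 columns share nearly the same distribution of values, so they appear to have been quantile-normalised across libraries, a step that no label records and that can hide a shift shared by most genes. Read depth is unknown, so no counting interval could be given. Entries of the 272 symbols listed more than 1 time were summed. Values were tested as log2(FPKM + 1) with limma 3.58.1 (R 4.3.3, variance trend, two-sided, Benjamini-Hochberg adjustment over all tested genes, threshold 0.05), for genes at 1 FPKM or more in at least 2 libraries. Genotype comparisons were fitted on the libraries of 1 tissue, tumour-skin comparisons and the interaction on all 12. The fits on all 12 took 1 spread per gene from tumours and skin together, though the tissues differed in spread. For Adamts16, the SE between genotypes was 0.059 in skin and 0.469 in tumours. The procedure was also run on simulated data that gave each gene 1 spread in all groups and drew genes independently. That run does not test how unequal spread or correlated genes affect the calls. Members and gene lists were chosen with earlier results of these data known. Named members were those called without overlap and averaging 1 FPKM or more in the higher group, the 4 smallest p where none was called, and Timp1 to Timp4, Mmp2, Mmp3, Mmp9, Mmp10, Mmp13, Mmp14, Adam10 and Adam17 throughout. Other members, such as Mmp1a, Mmp8, Mmp12, Mmp28, Adam12, Adamts4 and Adamts5, were named by role after their values were seen. A planned split of the Adam genes by their zinc-binding motif was not made because no protein sequences were used here. Alternatives were another pseudocount, other filters, a rescaling, other libraries in the fit, no variance trend, array weights, the highest entry per symbol, sex as a term and each library left out. The values of 1 gene of the lists are not reported here.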

Additional observations from a re-analysis of the deposited data

Results flagged for a closer look

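Among the 46 tested members, 5 had 1 TAp63-/- tumour far above the other 3, by a gap larger than Dixon's critical share of the range for 4 samples. For normally distributed values, chance alone gives about 1 case in 20 with such a gap at either end. Whether the FPKM values meet that was not tested, and members measured in the same libraries are not independent cases. TAp63-/- cSCC replicate 2 was the high library for 4 of them, with 20.49 FPKM of Mmp11, 909.4 FPKM of Mmp12, 188.5 FPKM of Mmp14 and 112.5 FPKM of Timp2. The same library had the highest macrophage, fibroblast, neutrophil and mast cell marker sums of the 6 tumours. Its adipocyte sum was also the highest, through Fabp4 alone among the adipocyte markers. The part of these cells in its levels was not tested. Adamts10 was high in TAp63-/- cSCC replicate 3, at 4.788 FPKM.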

How the results depend on the processing

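The count of members called between WT tumours and WT skin was 6, and it was 0 with sex as a term and from 0, without WT cSCC replicate 1, to 8, without TAp63-/- cSCC replicate 2, when single libraries were left out. Without WT skin replicate 1, 2 or 3 it was 3, 3 or 2. The count between TAp63-/- tumours and TAp63-/- skin was 16, and it was 10 with only the 2 groups in the fit, 7 with sex as a term, and 10 to 18 with single libraries left out, the lowest without TAp63-/- skin replicate 3. The comparisons of genotype and the interaction called 0 members under every alternative run. Over the other 118 values followed, 2044 alternatives kept the side of the threshold, 195 lost a call and 6 gained one. A further 7 changed sign by at least the SE of the main fit, with no call in either setting. In all, 63 changed sign with no call in either setting. These are the 7 and others, with smaller shifts, that are counted within the 2044. Calls gained by values not followed, such as Mmp1b in WT tissue with a pseudocount of 0.1, are outside these counts. Adam10, Adam8, Mmp13, Mmp2, Mmp27 and Timp2 kept their TAp63-/- call under every alternative run. The cause of the lost calls was not tested. The sex term rests on TAp63-/- cSCC replicate 1, the single male tumour. Rescaling moved the median of all genes by at most 0.0845. No paired analysis was possible because replicate numbers were given in accession order and pair no samples. Age, irradiation, tissue and whatever the series of column names mark cannot be told apart, and 2 WT tumours limit what could pass.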
